A study of Homo sapiens with 18 samples.

Results

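AP-1 is a transcription factor assembled from pairs of basic leucine zipper (bZIP) proteins, and the 10 genes described here encode proteins that can take part in it or bind closely related sites. They are FOS, FOSB, FOSL1 and FOSL2 of the FOS family, JUN, JUNB and JUND of the JUN family, and ATF3, BATF and MAFF. They were chosen by name, with earlier results of these data known, and make up 10 of the 26249 genes in the tables. All 10 were found under these symbols, and 8 reached a mean of at least 1 FPKM (fragments scaled to the length of the transcript and the size of the library) in at least 1 group, the level needed to enter the tests. FOSB and FOSL2 stayed below it in all 6 groups.

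FOS proteins cannot pair with themselves and bind DNA as partners of JUN proteins, whereas JUN proteins can also pair with each other. Many of these genes are immediate early genes, which are induced within minutes by growth factor, cytokine or stress signals through MAP kinases and whose mRNAs are short-lived. In B-lineage cells BATF pairs with JUN proteins and acts together with IRF4, a factor on which plasma cells depend.

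QuantSeq libraries, which read the 3′ ends of mRNAs, gave transcript levels in human cultures whose labels name XG1 and AMO1, both described there as lines of multiple myeloma, a cancer of plasma cells. Cultures of each line had been exposed for 6 h to 100 nM or 1000 nM YKL-5-124, a covalent inhibitor of the transcription and cell cycle kinase CDK7, or to its solvent DMSO. This gave 6 groups of 3 libraries, 18 libraries in all, in a study of CDK7 inhibition in resistant myeloma lines. The labels name no genetic change in either line, and do not say that the 3 replicates of a group were separate cultures, so p-values measure the spread between libraries, which may be technical.

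The libraries labelled XG1 went against their label. Of 10 plasma cell marker genes, 1 reached 10 FPKM in every XG1 library, against 9 that did so in every AMO1 library. IRF4 averaged 0.17 ± 0.04 FPKM in XG1 DMSO libraries and 32.8 ± 1.3 FPKM in AMO1 DMSO libraries (SD, n = 3 each). Of 10 erythroid genes, 8 reached 10 FPKM in every XG1 library, against 0 in AMO1 libraries, and their summed level was 3521 to 4207 FPKM in XG1 and 3.51 to 29.1 FPKM in AMO1 libraries. Sums of 7 T cell and myeloid markers were 20.6 to 37.9 FPKM in XG1 libraries and 1.33 to 3.35 FPKM in AMO1 libraries, and sums of 6 stromal and epithelial markers were 79.2 to 110.0 FPKM in XG1 and 2.48 to 5.55 FPKM in AMO1 libraries. In XG1 DMSO libraries ITGAM (26.7 FPKM) and LYZ (7.57 FPKM) made up most of the first sum, and EPCAM (37.6 FPKM) and KRT18 (55.9 FPKM) most of the second. The T cell genes CD3D, CD3E and CD2 averaged 0.22, 0.10 and 0.10 FPKM there, and CD3E was higher in AMO1 DMSO libraries (1.64 FPKM). The stromal genes COL1A1, COL1A2 and DCN averaged 0.20, 0.11 and 0.17 FPKM in XG1 DMSO libraries. The name XG1 is used below only as a label, and results of the 2 lines are given separately. FPKM values carry no read numbers, so depth is unknown and no counting interval could be set. A library held 9284 to 10571 genes at 1 FPKM or more.

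The promoters of JUNB, FOS and JUN are shown because JUNB was the only member called in all 4 comparisons with DMSO, and because FOS was called higher and JUN lower in AMO1 libraries at 1000 nM. Each is the 250 bases before the RefSeq transcription start in build GRCh38.p14, 5′ to 3′ on the gene's strand. The JUNB promoter lies at chr19:12791236-12791485 on the plus strand, that of FOS at chr14:75278578-75278827 on the plus strand, and that of JUN at chr1:58784048-58784297 on the minus strand. Capitals mark TATAAA in JUNB and FOS, the core of a TATA box, and TGACNTCA in JUN, the CRE-like form of the AP-1 site.
JUNB: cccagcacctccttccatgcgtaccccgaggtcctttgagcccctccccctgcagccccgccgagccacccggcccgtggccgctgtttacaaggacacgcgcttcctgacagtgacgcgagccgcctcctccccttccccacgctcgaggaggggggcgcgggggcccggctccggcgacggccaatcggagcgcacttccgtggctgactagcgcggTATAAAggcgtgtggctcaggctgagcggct
FOS: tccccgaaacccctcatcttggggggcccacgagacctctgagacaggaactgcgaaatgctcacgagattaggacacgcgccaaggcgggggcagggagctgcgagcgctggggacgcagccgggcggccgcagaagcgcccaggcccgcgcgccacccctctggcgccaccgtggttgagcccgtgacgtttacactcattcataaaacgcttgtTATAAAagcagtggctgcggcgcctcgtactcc
JUN: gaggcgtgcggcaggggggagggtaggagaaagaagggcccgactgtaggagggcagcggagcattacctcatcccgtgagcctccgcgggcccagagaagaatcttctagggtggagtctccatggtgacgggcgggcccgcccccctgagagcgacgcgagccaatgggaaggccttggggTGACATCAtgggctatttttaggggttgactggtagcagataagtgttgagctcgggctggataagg

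TATAAA began 31 bases before the start in JUNB and 33 bases before it in FOS, and the TGACATCA of JUN began 67 bases before its start. Of the 9 members with a promoter in the RefSeq table (FOSL1 had none), TATAAA was found on either strand in 4, namely FOS, FOSB, JUNB and ATF3. In FOSB the match began 30 bases before the start, but in ATF3 it began 230 bases before the second listed start. TATAAA was found in 10.8% of 34943 promoters of this length. TGACNTCA was found in JUN, JUND, ATF3 and MAFF, against 6.86% of all promoters. The other common AP-1 site, TGANTCA, was found in 0 of the 9 members and in 6.59% of all promoters. CCAAT was found in 5 members and in 32.0% of promoters, and GGGCGG, which can lie within longer GC-rich motifs, in 8 members and in 42.6%. The CArG box, the site of serum response factor, was found in 0 members and in 1.17% of promoters. Bases further than 250 upstream were not searched, so a 0 does not show that a gene lacks the site. For ATF3 and MAFF both listed starts were searched. A match is a description of the letters and not of binding.

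JUNB, the JUN protein that often restrains proliferation, rose with the inhibitor in both lines and at both doses, with group means 1.62 to 2.02 times those in DMSO. FOS rose and JUN fell in AMO1 libraries at 1000 nM, though the call of JUN ended after centring. ATF3 fell in XG1 libraries and rose in AMO1 libraries at 1000 nM. MAFF rose in XG1 libraries at 100 nM. JUND, FOSL1 and BATF did not pass the test against DMSO at either dose.

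**Figure D1:**
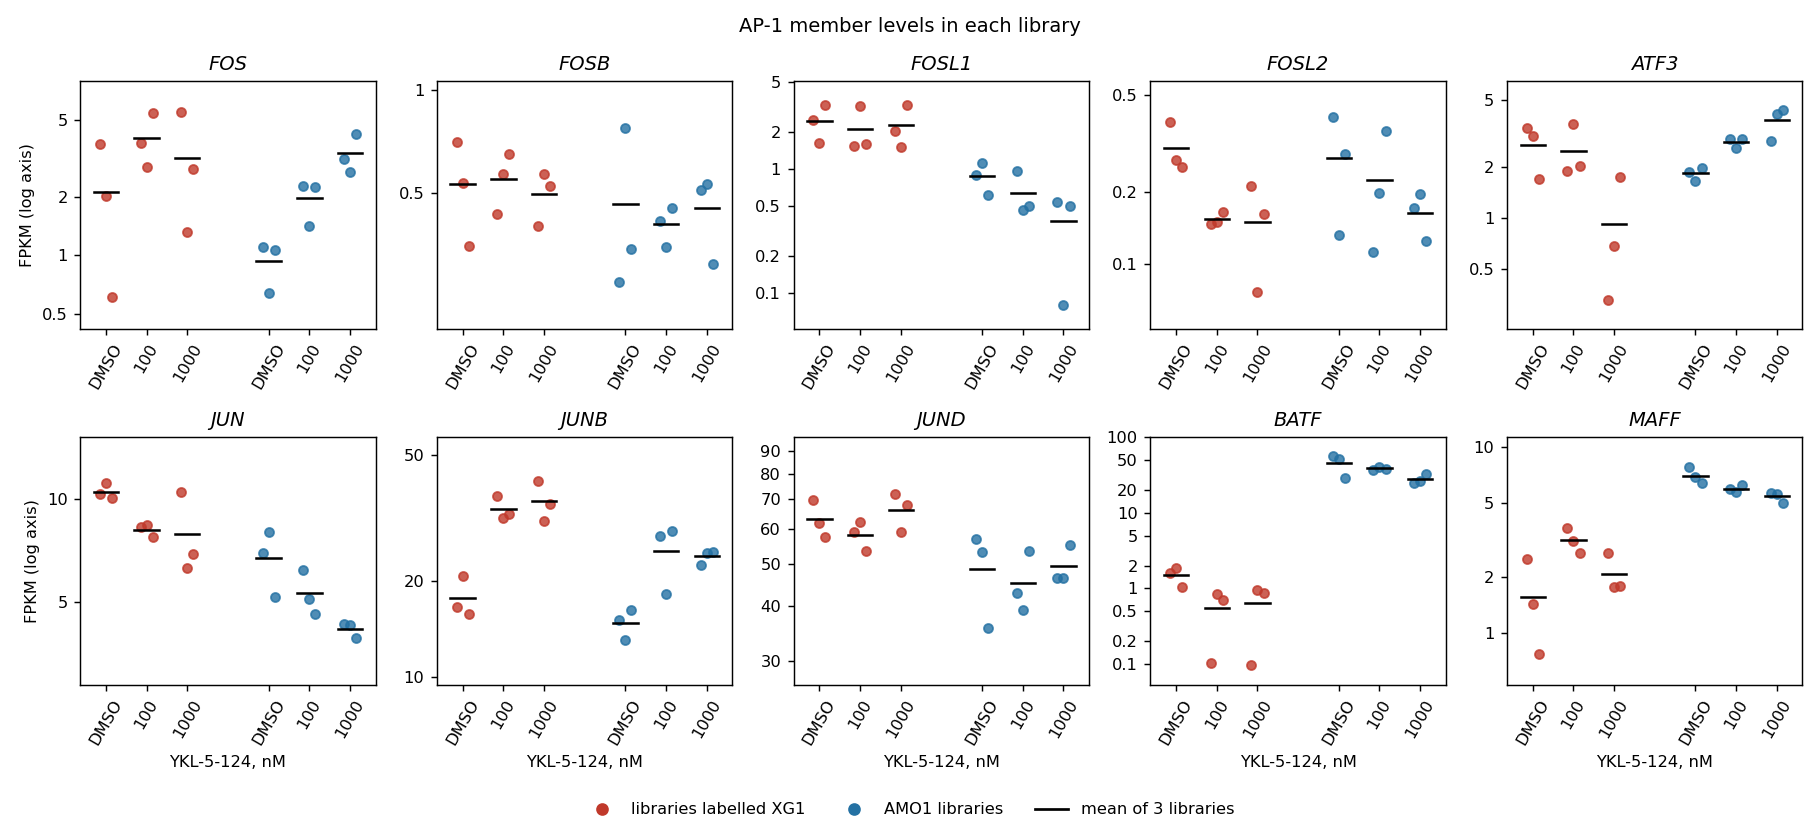
FPKM (log axis) of the AP-1 members in each library by YKL-5-124 dose in nM, with libraries labelled XG1 and AMO1 libraries in different colours; points are libraries and lines the means of 3. JUNB points at 100 and 1000 nM lie above those of DMSO in both lines, and BATF is 24.8 to 56.6 FPKM in AMO1 libraries and 0.10 to 1.84 FPKM in XG1 libraries.

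Changes are differences of log2(FPKM + 1) with their SE, a scale that understates the change of low genes. P-values are from limma, adjusted over all 12204 genes tested, and a gene was called below 0.05. Within bulk RNA, fewer cells of a type and less RNA per cell cannot be told apart. In XG1 libraries at 1000 nM 2 of the 8 tested members were called, 1 higher and 1 lower, beside 17.6% of all genes tested (1.90% higher and 15.7% lower). In XG1 libraries at 100 nM 2 of 8 were called, both higher, beside 6.61% of all genes (2.63% higher and 3.98% lower). In AMO1 libraries at 1000 nM 4 of 8 were called, 3 higher and 1 lower, beside 17.1% (1.78% higher and 15.4% lower). In AMO1 libraries at 100 nM 1 of 8 was called, higher, beside 2.20% (0.434% higher and 1.76% lower). The libraries of the treated and DMSO groups did not overlap for 2 of 8 members in XG1 libraries at 1000 nM, beside 32.2% of all genes, and for 4 of 8 at 100 nM, beside 27.4%. They did not overlap for 6 of 8 in AMO1 libraries at 1000 nM, beside 35.6% of all genes, and for 4 of 8 at 100 nM, beside 18.8%. The median log2 change of the 8 members was -0.01 (XG1, 1000 nM), -0.10 (XG1, 100 nM), -0.14 (AMO1, 1000 nM) and -0.14 (AMO1, 100 nM), against -0.19, -0.01, -0.18 and -0.09 for all genes tested in the same order. Centring set every library to the same median over the 12204 genes tested, which include genes that are low in that library. It takes out a shift shared by most genes. The median change of all genes at 1000 nM then became 0.07 in XG1 and 0.11 in AMO1 libraries. The genes called at 1000 nM became 969 higher and 969 lower in XG1 libraries, against 232 and 1920 without centring. In AMO1 libraries they became 1012 higher and 815 lower, against 217 and 1874. At 100 nM centring gave 611 higher and 888 lower in XG1 and 289 higher and 188 lower in AMO1 libraries. Centred values are therefore given beside the called changes of members against DMSO. For other genes named with their values centring is mentioned where it ended a call.

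The counts of all genes called moved with single libraries. Leaving out 1 library of a comparison gave 1110 to 2574 genes in XG1 libraries at 1000 nM (2152 with all), lowest without DMSO replicate 1, and 399 to 611 at 100 nM (807 with all), lowest without DMSO replicate 2. It gave 1185 to 3049 genes in AMO1 libraries at 1000 nM (2091 with all), lowest without DMSO replicate 2 and highest without DMSO replicate 3, and 101 to 980 at 100 nM (268 with all), lowest without 100 nM replicate 2 and highest without DMSO replicate 3.

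Marker sums moved with the inhibitor too. In XG1 libraries the plasma cell sum was 44.4 to 55.2 FPKM at 1000 nM and 45.4 to 66.4 FPKM at 100 nM, against 72.1 to 75.9 FPKM in DMSO. XBP1 and SDC1 made up most of it, with XBP1 averaging 31.2 FPKM and SDC1 6.80 FPKM at 1000 nM, against 53.9 and 12.1 FPKM in DMSO, while means of several low markers were higher at 1000 nM, IRF4 at 0.29 against 0.17 FPKM and JCHAIN at 5.06 against 2.77 FPKM. The T cell and myeloid sum was 20.6 to 27.1 FPKM at 1000 nM against 31.8 to 37.9 FPKM in DMSO, and the stromal and epithelial sum 79.2 to 92.2 FPKM against 95.7 to 104.1 FPKM. The erythroid sums overlapped, at 3521 to 4159 FPKM at 1000 nM against 3985 to 4207 FPKM in DMSO, but KLF1, an erythroid transcription factor, averaged 14.4 FPKM against 56.8 FPKM. In AMO1 libraries the plasma cell sums overlapped, at 4808 to 5454 FPKM at 1000 nM against 5215 to 7249 FPKM in DMSO. SDC1 and JCHAIN made up most of them. Several single markers fell without overlap. IRF4 averaged 20.3 FPKM at 1000 nM against 32.8 FPKM in DMSO, TNFRSF17 88.0 against 164.2 FPKM and SLAMF7 14.3 against 33.1 FPKM. Means of PRDM1 (9.33 against 9.18 FPKM) and CD38 (20.3 against 19.6 FPKM) were slightly higher. The part of these markers in the changes was not tested.

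Among the JUN family, JUNB was at 16.6, 20.8 and 15.8 FPKM in XG1 DMSO libraries, 37.0, 31.7 and 32.5 FPKM at 100 nM and 41.4, 31.0 and 35.0 FPKM at 1000 nM. All 6 treated libraries were above all 3 DMSO libraries. The means were 17.7 ± 2.71 FPKM in DMSO, 33.8 ± 2.87 FPKM at 100 nM and 35.8 ± 5.28 FPKM at 1000 nM (SD, n = 3 each). By limma the log2 change was 0.97 ± 0.17 at 1000 nM (adjusted p = 8.01e-04) and 0.90 ± 0.17 at 100 nM (adjusted p = 0.00353), and after centring 1.23 and 0.91. JUNB in XG1 libraries stayed called at both doses under every alternative tried, including each left-out library.

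In AMO1 libraries JUNB was at 15.1, 13.0 and 16.2 FPKM in DMSO, 27.8, 18.2 and 28.9 FPKM at 100 nM and 22.6, 24.6 and 24.8 FPKM at 1000 nM. Groups again did not overlap, and replicate 2 at 100 nM lay nearest to the DMSO libraries. By limma the log2 change was 0.67 ± 0.17 at 1000 nM (adjusted p = 0.0115) and 0.70 ± 0.17 at 100 nM (adjusted p = 0.0387), and after centring 0.96 and 0.87. The call at 1000 nM ended without DMSO replicate 2 (adjusted p = 0.063, limma), and the call at 100 nM ended without DMSO replicate 1 or 2 or without 100 nM replicate 1 or 3 (adjusted p of 0.106 to 0.166). JUNB overlaps HOOK2 on the opposite strand in GENCODE 29, and the sources used here do not say if strand was used in counting.

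JUN, the founding AP-1 subunit, was at 4.31, 4.26 and 3.91 FPKM in AMO1 libraries at 1000 nM, against 6.98, 8.03 and 5.17 FPKM in DMSO. The groups did not overlap, and the 100 nM libraries, at 6.21, 5.09 and 4.59 FPKM, overlapped those of DMSO. The log2 change at 1000 nM was -0.57 ± 0.18 (adjusted p = 0.0376, limma), but after centring it was -0.27 and not called (adjusted p = 0.243). The call also ended on leaving out any library compared except DMSO replicate 3. Quantile scaling, no filter, the replicate block and a fit of the libraries compared alone ended it too (adjusted p of 0.0548 to 0.316, limma). In XG1 libraries JUN was at 10.4, 11.2 and 10.1 FPKM in DMSO, 8.31, 8.39 and 7.77 FPKM at 100 nM and 10.5, 6.29 and 6.93 FPKM at 1000 nM. Replicate 1 at 1000 nM lay among the DMSO libraries, and neither change was called (-0.33 ± 0.18 at 100 nM and -0.40 ± 0.18 at 1000 nM, adjusted p = 0.319 and 0.136, limma). Without that library the change at 1000 nM was -0.60 and called (adjusted p = 0.0341).

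JUND, a JUN protein that is present in most resting cells, was at 57.5 to 69.8 FPKM in XG1 DMSO libraries, 53.4 to 62.1 FPKM at 100 nM and 58.9 to 72.1 FPKM at 1000 nM. In AMO1 libraries it was at 35.8 to 56.9 FPKM in DMSO, 39.1 to 53.4 FPKM at 100 nM and 46.4 to 55.2 FPKM at 1000 nM. All ranges overlapped. The log2 changes lay between -0.11 and 0.07, and their 95% intervals together ran from -0.47 to 0.42. The change in XG1 libraries at 1000 nM was called only with quantile scaling (0.39, adjusted p = 0.0094, limma).

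Among the FOS family, FOS was at 3.15, 2.70 and 4.22 FPKM in AMO1 libraries at 1000 nM, against 1.1, 0.64 and 1.07 FPKM in DMSO. The 100 nM libraries, at 2.26, 1.42 and 2.25 FPKM, lay between these groups with no overlap on either side. The means were 0.93 ± 0.26 FPKM in DMSO, 1.98 ± 0.49 FPKM at 100 nM and 3.35 ± 0.78 FPKM at 1000 nM (SD, n = 3 each). By limma the log2 change was 1.16 ± 0.36 at 1000 nM (adjusted p = 0.0328, 1.46 after centring) and 0.62 ± 0.36 at 100 nM (adjusted p = 0.445, not called). The call at 1000 nM ended without DMSO replicate 1 or 2 or any of the 1000 nM libraries (adjusted p of 0.0584 to 0.124).

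In XG1 libraries FOS was at 3.72, 2.02 and 0.61 FPKM in DMSO, 3.79, 2.85 and 5.43 FPKM at 100 nM and 5.45, 1.32 and 2.79 FPKM at 1000 nM. The groups overlapped, and the 3 DMSO libraries alone ran from 0.61 to 3.72 FPKM. Neither change was called (0.79 ± 0.36 at 100 nM and 0.44 ± 0.36 at 1000 nM, adjusted p = 0.217 and 0.453, limma).

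FOSL1, also called FRA1, was at 2.47, 1.63 and 3.25 FPKM in XG1 DMSO libraries, 1.55, 3.22 and 1.60 FPKM at 100 nM and 2.02, 1.51 and 3.27 FPKM at 1000 nM. These groups overlapped throughout. In AMO1 libraries it was at 0.55, 0.08 and 0.51 FPKM at 1000 nM, against 0.90, 1.13 and 0.61 FPKM in DMSO. The groups did not overlap, but the fall was not called (-0.46 ± 0.24, adjusted p = 0.216, limma), and the value of 1000 nM replicate 2 was at the floor of its library, its commonest low value. At 100 nM it was at 0.97, 0.46 and 0.50 FPKM.

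FOSB, a FOS protein that like FOS is induced by stimulation, was at 0.28 to 0.77 FPKM over all 18 libraries. FOSL2, also called FRA2, was at 0.08 to 0.41 FPKM. In XG1 libraries FOSL2 was at 0.39, 0.27 and 0.25 FPKM in DMSO, 0.15, 0.15 and 0.17 FPKM at 100 nM and 0.21, 0.08 and 0.16 FPKM at 1000 nM. With no filter on low values neither gene was called in any comparison, and the change of FOSL2 in XG1 libraries at 1000 nM was -0.18 (adjusted p = 0.301, limma). FOSB overlaps ERCC1 and FOSL2 overlaps FLJ31356, both on the opposite strand. FOSL2 also overlaps AC104695.3, a sense intronic transcript on the same strand.

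Of the other members, ATF3, a stress-induced factor that as a pair with itself represses transcription, was at 0.33, 0.69 and 1.75 FPKM in XG1 libraries at 1000 nM, against 3.42, 3.04 and 1.70 FPKM in DMSO. Replicate 3 at 1000 nM overlapped replicate 3 in DMSO, and the 100 nM libraries, at 1.90, 3.59 and 2.03 FPKM, overlapped those of DMSO, replicate 2 lying above the highest DMSO library. The log2 change at 1000 nM was -0.99 ± 0.25 (adjusted p = 0.00898, limma, -0.73 after centring). It ended without DMSO replicate 1 (-0.85, adjusted p = 0.0581) or without 1000 nM replicate 1 (-0.76, adjusted p = 0.0543), and in a fit of the libraries compared alone (adjusted p = 0.0507). At 100 nM the change was -0.09 ± 0.25 (adjusted p = 0.919).

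In AMO1 libraries ATF3 was at 1.88, 1.65 and 1.99 FPKM in DMSO, 2.95, 2.60 and 2.95 FPKM at 100 nM and 2.88, 4.14 and 4.37 FPKM at 1000 nM. All treated libraries lay above all DMSO libraries. The log2 change was 0.74 ± 0.25 at 1000 nM (adjusted p = 0.0423, limma, 1.04 after centring) and 0.44 ± 0.25 at 100 nM (adjusted p = 0.429, not called). The call at 1000 nM is near the threshold and ended on leaving out any library compared except 1000 nM replicate 1 (adjusted p of 0.0524 to 0.134). It also ended with a pseudocount of 0.1 FPKM, no filter, spike-in scaling, no trend or robust step, or the replicate block (adjusted p of 0.0514 to 0.105, limma).

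MAFF, a small MAF protein that lacks an activation domain, was at 3.69, 3.15 and 2.69 FPKM in XG1 libraries at 100 nM, against 2.51, 1.44 and 0.78 FPKM in DMSO. The groups did not overlap, while the 1000 nM libraries, at 2.70, 1.76 and 1.80 FPKM, did overlap those of DMSO. The log2 change was 0.75 ± 0.20 at 100 nM (adjusted p = 0.0315, limma, also 0.75 after centring) and 0.30 ± 0.20 at 1000 nM (adjusted p = 0.338), which after centring was 0.56 and called (adjusted p = 0.0392). The call at 100 nM ended without DMSO replicate 2 or 3 or without 100 nM replicate 1 or 2 (adjusted p of 0.0696 to 0.165), and in a fit of the 9 XG1 libraries alone (adjusted p = 0.108).

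In AMO1 libraries MAFF was at 7.78, 6.92 and 6.4 FPKM in DMSO, 5.94, 5.77 and 6.24 FPKM at 100 nM and 5.67, 5.61 and 5.02 FPKM at 1000 nM. All treated libraries lay below all DMSO libraries, but neither change was called (-0.20 ± 0.20 at 100 nM and -0.32 ± 0.20 at 1000 nM, adjusted p = 0.726 and 0.321, limma). MAFF overlaps PLA2G6 on the opposite strand.

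BATF was at 24.8, 26.3 and 32.8 FPKM in AMO1 libraries at 1000 nM, against 56.6, 51.1 and 29.3 FPKM in DMSO. DMSO replicate 3 lay within the range of the 1000 nM libraries, and the change was not called (-0.65 ± 0.26, adjusted p = 0.09, limma). Without that replicate it was -0.93 and called (adjusted p = 0.0126), and with a pseudocount of 5 FPKM it was -0.58 and called (adjusted p = 0.0164). At 100 nM BATF was at 37.3, 40.2 and 38.6 FPKM, a change of -0.18 ± 0.26 (adjusted p = 0.834, limma).

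In XG1 libraries BATF was at 1.61, 1.84 and 1.03 FPKM in DMSO, 0.10, 0.85 and 0.69 FPKM at 100 nM and 0.10, 0.96 and 0.87 FPKM at 1000 nM. All treated libraries lay below all DMSO libraries, replicate 1 of each dose being at the floor of its library. Neither change was called (-0.71 ± 0.26 at 100 nM and -0.64 ± 0.26 at 1000 nM, adjusted p = 0.111 and 0.094, limma). Of the 180 member values, 5 were within 1.1 times the floor of their library, namely these 2 of BATF, 1 of FOSL1 and 2 of FOSL2.

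**Figure D2:**
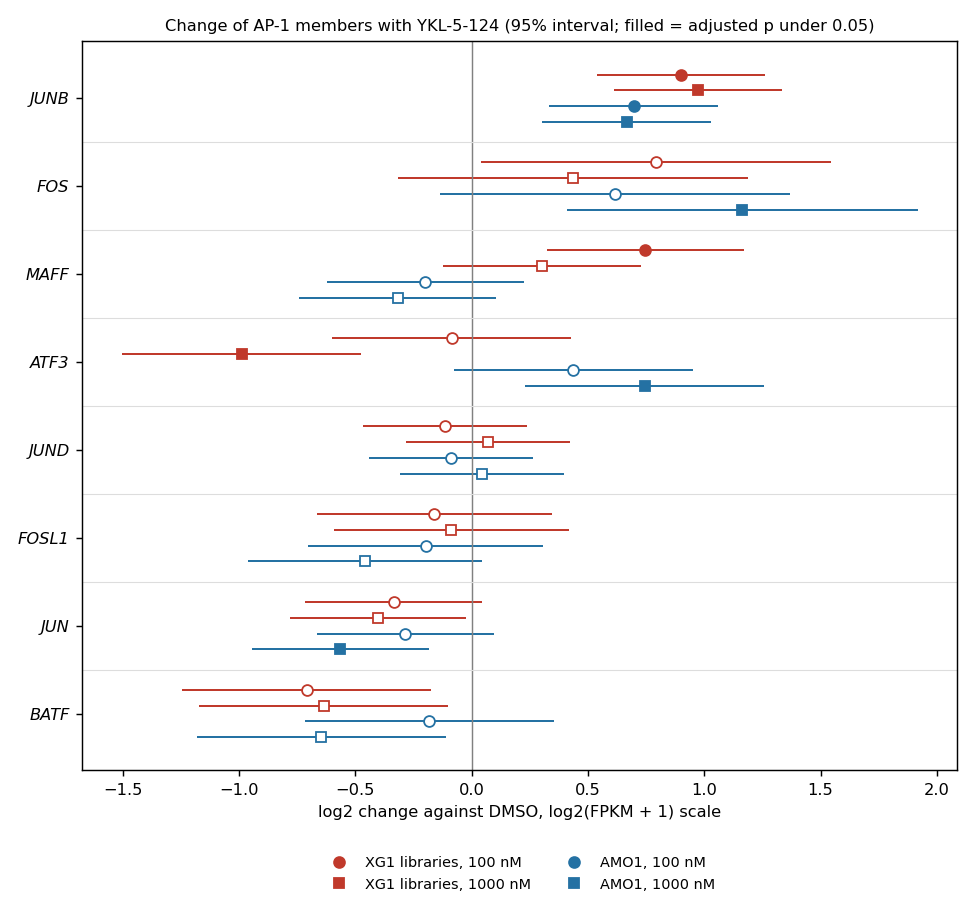
Change of each tested member against DMSO in each line and dose, as a difference of log2(FPKM + 1) with its 95% interval; filled points have an adjusted p under 0.05 by limma. JUNB is filled at both doses in both lines (0.97 and 0.90 in XG1 libraries, 0.67 and 0.70 in AMO1 libraries), and ATF3 is filled on opposite sides of 0 at 1000 nM.

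Between the doses, 1000 nM against 100 nM, 0 of 8 members were called in XG1 libraries and 0 of 8 in AMO1 libraries, beside 0.139% and 0.180% of all genes tested by limma. The doses did not overlap for 1 member in XG1 libraries and for 4 in AMO1 libraries, beside 17.5% and 22.2% of all genes. At an unadjusted p under 0.05 by limma there were 2 in XG1 libraries and 0 in AMO1 libraries, beside 1995 and 1282 of all 12204 genes tested. The 2 were ATF3, at -0.90 ± 0.25 with groups that did not overlap (adjusted p = 0.107), and MAFF, at -0.44 ± 0.20 (adjusted p = 0.285). Without 1000 nM replicate 3, the highest of its group, the ATF3 difference was -1.20 and called (adjusted p = 0.0187). For JUNB the difference between doses was 0.08 in XG1 libraries (95% interval of -0.29 to 0.44) and -0.03 in AMO1 libraries (-0.39 to 0.33). For FOS in AMO1 libraries it was 0.55 (-0.21 to 1.3). Both doses share their DMSO libraries, so each dose's changes are given side by side and no overlap between them is counted.

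The difference of the responses, the change in XG1 libraries minus that in AMO1 libraries, was tested in the same fit. At 1000 nM 1 of 8 members was called, ATF3, beside 0.680% of all genes. Its difference was -1.73 ± 0.35 (adjusted p = 0.0195, limma, -1.77 after centring), from a change of -0.99 in XG1 libraries and 0.74 in AMO1 libraries. The call ended without XG1 DMSO replicate 1 or 2, XG1 1000 nM replicate 1, AMO1 DMSO replicate 2, or AMO1 1000 nM replicate 2 or 3 (-1.68 to -1.5, adjusted p of 0.0573 to 0.0692), and with a pseudocount of 0.1 FPKM, no filter or the replicate block (adjusted p = 0.0637, 0.0586 and 0.0653). At 100 nM 0 of 8 were called, beside 0.156% of all genes. At an unadjusted p under 0.05 there was 1, beside 1071 of all 12204 genes tested. It was MAFF, with a difference of 0.95 ± 0.29 (adjusted p = 0.253, limma). The JUNB responses differed by 0.31 at 1000 nM (95% interval of -0.20 to 0.82) and 0.20 at 100 nM (-0.31 to 0.71), and were not called different. The FOS responses at 1000 nM differed by -0.73 (-1.79 to 0.34), so the rise called in AMO1 libraries was not shown to differ from the change in XG1 libraries.

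In DMSO 5 of 8 members differed between XG1 and AMO1 libraries, 3 higher and 2 lower, beside 62.7% of all genes (28.3% higher and 34.4% lower). BATF averaged 1.5 ± 0.42 FPKM in XG1 libraries and 45.7 ± 14.5 FPKM in AMO1 libraries, a log2 difference of -4.19 ± 0.26 (adjusted p = 1.53e-11, limma). MAFF averaged 1.58 ± 0.87 FPKM in XG1 libraries and 7.03 ± 0.70 FPKM in AMO1 libraries, a difference of -1.69 ± 0.20 (adjusted p = 4.07e-07). Both were lower in every XG1 library than in every AMO1 library.

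FOSL1 averaged 2.45 ± 0.81 FPKM in XG1 and 0.88 ± 0.26 FPKM in AMO1 DMSO libraries (0.86 ± 0.24, adjusted p = 0.00425, limma). JUN averaged 10.6 ± 0.54 FPKM in XG1 and 6.73 ± 1.45 FPKM in AMO1 DMSO libraries (0.60 ± 0.18, adjusted p = 0.00761). JUND averaged 63.1 ± 6.24 FPKM in XG1 and 48.6 ± 11.3 FPKM in AMO1 DMSO libraries (0.39 ± 0.17, adjusted p = 0.0499), a call that sits at the threshold and ended without XG1 DMSO replicate 1 or 2 or AMO1 DMSO replicate 3 (adjusted p of 0.0877 to 0.259). None of these 3 genes overlapped between the lines, and 5 of 8 members in all did not, beside 65.1% of all genes. FOS, JUNB and ATF3 were not called. FOS was called without XG1 DMSO replicate 3, the lowest of its group (0.97, adjusted p = 0.0167). The erythroid and plasma cell markers differed between the same libraries, and their part in these differences was not tested.

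**Figure D3:**
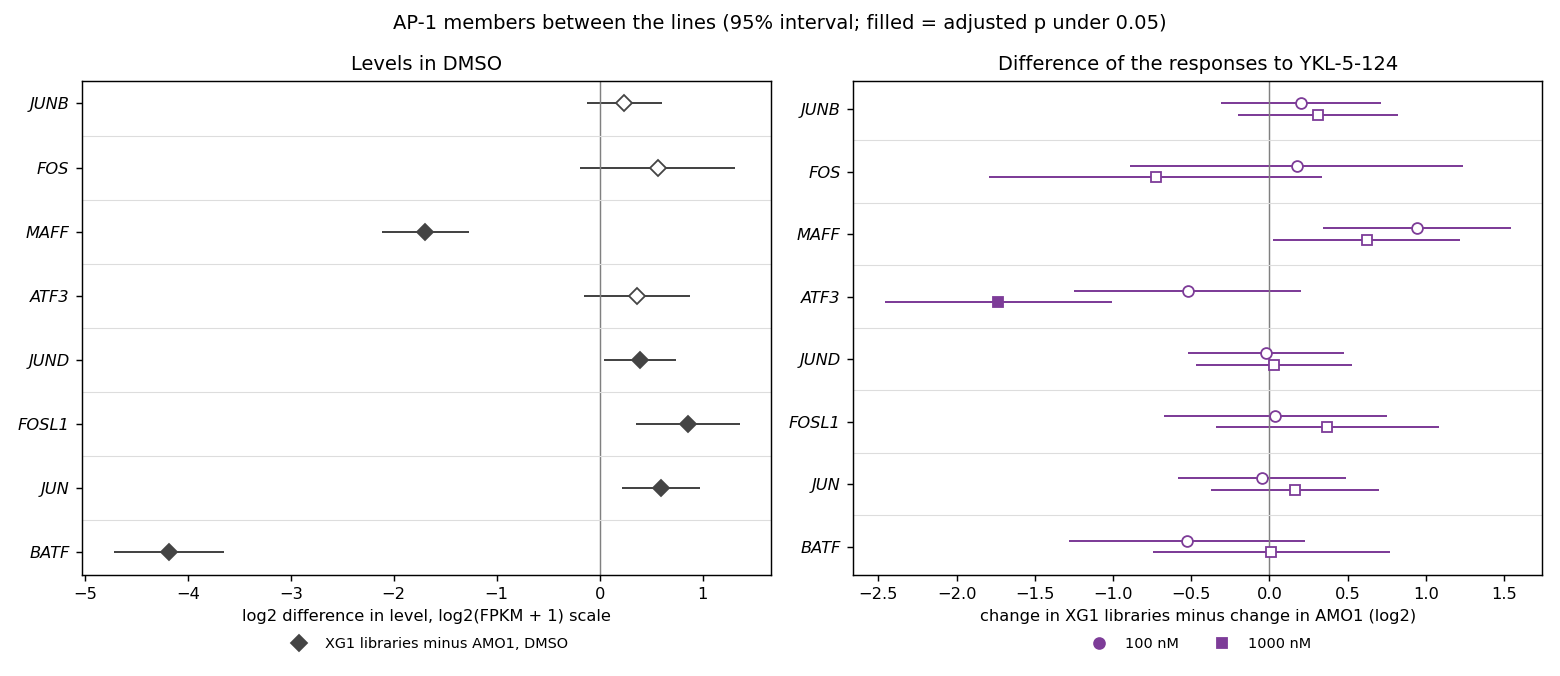
Left, difference of each tested member's level between XG1 and AMO1 libraries in DMSO; right, change with YKL-5-124 in XG1 libraries minus change in AMO1 libraries at each dose; both in log2(FPKM + 1) with 95% intervals, filled where the adjusted p is under 0.05 by limma. BATF stands at -4.19 on the left, and ATF3 at 1000 nM, at -1.73, is the 1 filled point on the right.

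Across all 6 groups, JUNB means ran in the order 35.8 (XG1, 1000 nM), 33.8 (XG1, 100 nM), 25.0 (AMO1, 100 nM), 24.0 (AMO1, 1000 nM), 17.7 (XG1, DMSO) and 14.8 FPKM (AMO1, DMSO). Of the neighbours in this order, XG1 at 100 nM did not overlap AMO1 at 100 nM, and AMO1 at 1000 nM did not overlap XG1 in DMSO, while the other neighbours overlapped. FOS means ran in the order 4.03 (XG1, 100 nM), 3.35 (AMO1, 1000 nM), 3.19 (XG1, 1000 nM), 2.12 (XG1, DMSO), 1.98 (AMO1, 100 nM) and 0.93 FPKM (AMO1, DMSO), and only the last 2 of these did not overlap.

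Genes around AP-1 were counted in lists drawn from general knowledge, with earlier results of these data known. Of 12 tested bZIP partners outside the 10 members, 1 rose and 4 fell in XG1 libraries at 1000 nM and 2 rose and 2 fell at 100 nM, while 0 rose and 3 fell in AMO1 libraries at 1000 nM and none were called at 100 nM. Their median change was -0.07, 0.09, -0.42 and -0.26 in these comparisons. After centring, 2 rose and 3 fell in AMO1 libraries at 1000 nM, beside 1012 higher and 815 lower among all genes tested. BATF3, a relative of BATF, fell to 0.38 ± 0.42 FPKM in XG1 libraries at 1000 nM, against 3.73 ± 1.36 FPKM in DMSO (-1.78 ± 0.26, adjusted p = 1.40e-04, limma). In AMO1 libraries it fell to 8.08 ± 1.89 FPKM, against 21.3 ± 1.60 FPKM (-1.32 ± 0.26, adjusted p = 0.00178). JDP2, a repressor of AP-1, fell to 0.72 ± 0.13 FPKM in XG1 libraries at 1000 nM, against 2.38 ± 0.06 FPKM in DMSO (-0.98 ± 0.14, adjusted p = 1.68e-04). ATF7 fell at 1000 nM in both lines (-1.24 ± 0.29 in XG1 and -1.06 ± 0.29 in AMO1 libraries, adjusted p = 0.00567 and 0.0153), and the AMO1 call ended without DMSO replicate 2 or 1000 nM replicate 3. NFE2L2, the oxidative stress factor that pairs with small MAF proteins, fell in AMO1 libraries at 1000 nM (-0.65 ± 0.15, adjusted p = 0.0054). MAFA, a large MAF protein, rose in XG1 libraries with both doses, at 1.61 ± 0.57 FPKM in DMSO, 5.07 ± 0.56 FPKM at 100 nM and 4.54 ± 1.65 FPKM at 1000 nM (log2 changes of 1.24 ± 0.21 at 100 nM and 1.06 ± 0.21 at 1000 nM, adjusted p = 0.00122 and 0.00189).

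Of 14 tested members of the list of other immediate early genes (22 listed), 4 rose and 3 fell in XG1 libraries at 1000 nM and 3 rose and 0 fell at 100 nM, and 3 rose and 1 fell in AMO1 libraries at 1000 nM and 1 rose and 1 fell at 100 nM. Their median changes were 0.11 and 0.18 in XG1 libraries and 0.15 and 0.17 in AMO1 libraries at 1000 and 100 nM. After centring 6 rose and 1 fell in AMO1 libraries at 1000 nM, beside 1012 higher and 815 lower among all genes tested. EGR1, a zinc finger factor induced with FOS, rose in XG1 libraries with both doses, at 17.9 ± 2.06 FPKM in DMSO, 41.9 ± 1.21 FPKM at 100 nM and 70.2 ± 9.49 FPKM at 1000 nM (log2 changes of 1.19 ± 0.25 at 100 nM and 1.91 ± 0.25 at 1000 nM, adjusted p = 0.00633 and 3.80e-05, limma). IER3, a regulator of survival, rose in AMO1 libraries with both doses, at 16.4 ± 4.34 FPKM in DMSO, 44.5 ± 6.83 FPKM at 100 nM and 49.7 ± 0.73 FPKM at 1000 nM (log2 changes of 1.41 ± 0.19 at 100 nM and 1.58 ± 0.19 at 1000 nM, adjusted p = 3.62e-04 and 2.04e-05). In XG1 libraries IER3 rose too, by 0.75 ± 0.19 at 100 nM and 0.95 ± 0.19 at 1000 nM (adjusted p = 0.0204 and 0.0019, limma). That call at 100 nM ended with no filter and without DMSO replicate 1 or 2 or 100 nM replicate 1 or 2. BTG2, an antiproliferative gene, rose at 1000 nM by 1.07 ± 0.22 in XG1 and 0.70 ± 0.22 in AMO1 libraries (adjusted p = 0.00219 and 0.0317), and the AMO1 call ended on leaving out DMSO replicate 3 or any 1000 nM library. KLF2, a factor of lymphocyte quiescence, fell in AMO1 libraries at 1000 nM to 18.7 ± 0.27 FPKM, against 64.3 ± 17.0 FPKM in DMSO (-1.70 ± 0.20, adjusted p = 1.41e-05, limma). The KLF2 falls counted in XG1 libraries at 1000 nM and in AMO1 libraries at 100 nM ended in 14 and 13 of 17 settings. That of SGK1 in XG1 libraries at 1000 nM ended in 8 of 17. All 3 of these calls ended after centring.

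Upstream, 0 of 22 tested RAS and MAP kinase genes rose in any of the 4 comparisons, and 2 and 0 fell in XG1 libraries and 4 and 1 fell in AMO1 libraries at 1000 and 100 nM. The 2 in XG1 libraries at 1000 nM became 1 on leaving out any DMSO library or 1000 nM replicate 2, after centring and under 5 other settings, and the 1 in AMO1 libraries at 100 nM was 0 to 2 on leaving out a library. Their median change was -0.23 in XG1 and -0.30 in AMO1 libraries at 1000 nM. MAP2K7, a kinase that activates JNK, the kinase of JUN, fell at 1000 nM to 3.95 ± 1.18 FPKM in XG1 libraries, against 8.68 ± 1.04 FPKM in DMSO (-0.99 ± 0.20, adjusted p = 0.00213, limma). In AMO1 libraries it fell to 5.50 ± 0.40 FPKM, against 14.1 ± 2.77 FPKM in DMSO (-1.21 ± 0.20, adjusted p = 4.61e-04). Of 14 factors that bind the FOS promoter or act with them, 0 were called in XG1 libraries at either dose or in AMO1 libraries at 100 nM, and 1, ATF1, fell in AMO1 libraries at 1000 nM (-0.73 ± 0.22, adjusted p = 0.0269). The 0 called in XG1 libraries at 1000 nM became 4, all lower, without 1000 nM replicate 3 and 1 without DMSO replicate 3 or 1000 nM replicate 1, and centring gave 1 lower at 100 nM. The ATF1 call ended after centring and without DMSO replicate 1 or 2 or 1000 nM replicate 1 or 2. Of 11 tested MAP kinase feedback inhibitors, SPRY1 alone was called, in AMO1 libraries, where it fell with both doses, at 3.72 ± 0.63 FPKM in DMSO, 1.5 ± 0.18 FPKM at 100 nM and 1.20 ± 0.06 FPKM at 1000 nM (log2 changes of -0.91 ± 0.20 at 100 nM and -1.09 ± 0.20 at 1000 nM, adjusted p = 0.0154 and 8.44e-04). The call at 100 nM ended without DMSO replicate 1 or 2 or 100 nM replicate 1 or 2. Centring gave 1 higher call among these inhibitors in XG1 libraries at 1000 nM.

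Of 10 tested textbook AP-1 target genes (18 listed), 0 rose in any of the 4 comparisons with DMSO and 2 fell in XG1 and 3 in AMO1 libraries at 1000 nM, with 0 at 100 nM in either line. These counts turned with the setting. In XG1 libraries at 100 nM centring gave 1 higher and 2 lower and quantile scaling 3 higher and 2 lower, while leaving out DMSO replicate 3 gave 3 lower. The 2 that fell there at 1000 nM became 4 without DMSO replicate 3, and the 3 in AMO1 libraries became 1 without DMSO replicate 2. PLAUR, the urokinase receptor, fell at 1000 nM to 6.54 ± 1.3 FPKM in XG1 libraries, against 18.2 ± 4.14 FPKM in DMSO (-1.34 ± 0.19, adjusted p = 1.40e-04, limma). In AMO1 libraries it fell to 2.81 ± 0.28 FPKM, against 6.90 ± 0.87 FPKM in DMSO (-1.05 ± 0.19, adjusted p = 0.00117). CXCL8, the chemokine interleukin-8, fell in XG1 libraries (-1.68 ± 0.30, adjusted p = 9.25e-04). CCND1, cyclin D1, fell in AMO1 libraries (-0.81 ± 0.20, adjusted p = 0.00931), a call that ended without DMSO replicate 1 or 2, and HMOX1, heme oxygenase, also fell there (-0.68 ± 0.21, adjusted p = 0.0328), a call that ended after centring and on leaving out any library compared except DMSO replicate 1.

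A list of 9 factors that act on mRNAs with AU-rich elements was counted too, most of them in the decay that removes FOS and JUN family mRNAs. Of the 9, 0 rose, and 4 and 1 fell in XG1 libraries and 2 and 0 in AMO1 libraries at 1000 and 100 nM. The 4 in XG1 libraries at 1000 nM became 1 without DMSO replicate 1 or 2 or 1000 nM replicate 2, with no filter or with the replicate block, and 2 in a fit of the libraries compared alone. After centring 1 rose and 1 fell in XG1 libraries at each dose. ZFP36L2, an mRNA-destabilising zinc finger protein, fell in XG1 libraries with both doses, at 68.0 ± 13.2 FPKM in DMSO, 27.1 ± 3.57 FPKM at 100 nM and 18.6 ± 3.27 FPKM at 1000 nM (log2 changes of -1.28 ± 0.18 at 100 nM and -1.81 ± 0.18 at 1000 nM, adjusted p = 1.76e-04 and 2.14e-06, limma). CNOT7, a deadenylase, fell in AMO1 libraries at 1000 nM (-0.89 ± 0.15, adjusted p = 4.44e-04), and HNRNPD, also called AUF1, fell there too (-0.82 ± 0.16, adjusted p = 0.00185). These list counts stand beside the shares of all genes called given above, and the centred list counts beside the centred counts of all genes. Nothing particular to a list follows from them.

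**Figure D4:**
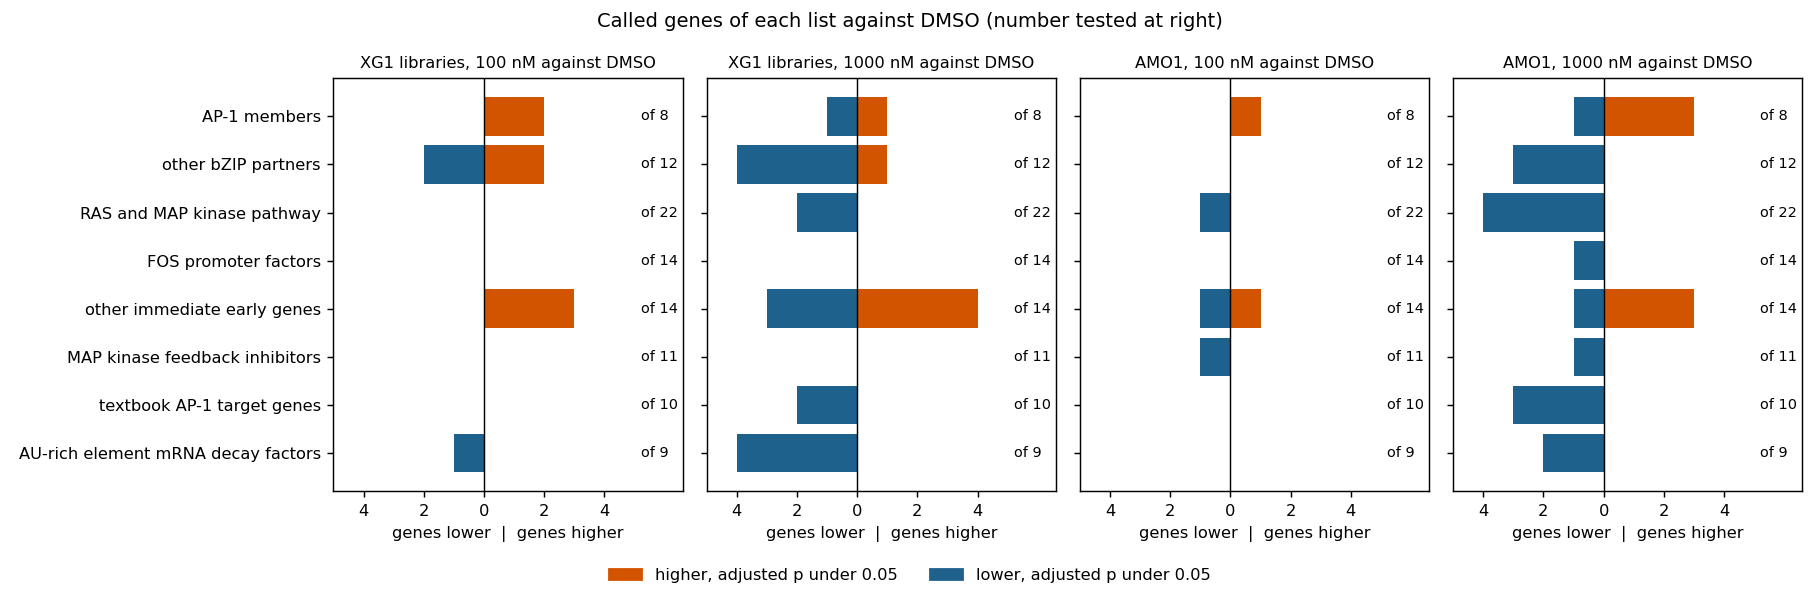
Number of called genes of each list that were higher (right of 0) or lower (left of 0) than DMSO in each comparison, with the number tested at the right edge, all from values without centring. Higher calls lie in the AP-1 member, immediate early and bZIP partner lists, and the 22 RAS and MAP kinase genes show 0 higher calls.

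The genes whose pattern over the 6 groups was most like that of a called member were found as those with the smallest root mean square difference of group means, each gene centred within its line. This is a description over 6 groups with no test. For JUNB they were MBLAC2, ACSF2 and SERTAD1 (0.07 to 0.09 log2), and for FOS they were POLH, PLAC8L1 and TXNIP (0.10 to 0.11). For ATF3 they were HIST1H2AH, IFI6 and CAHM, at 0.14 each. For MAFF they were SNAPC1, ATP6V1E2 and MPPE1 (0.03 to 0.04), and for JUN they were FAM178A, C14orf159 and NTHL1 (0.01 to 0.02).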

How the data were processed

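RNA was measured in 18 QuantSeq 3′ libraries, and the labels set the 6 groups of 3. The authors used HISAT2, Cuffnorm and build hg19, per the submitters' processing notes; the sources used here name no version, annotation or strand setting. For the deposited values the headers say only "expression", and the unit FPKM was inferred from Cuffnorm. Summed ERCC spike-in values were 112720 to 122223 per library, while summed gene values ran from 741443 to 2.07e+06. Spike-in totals were thus nearly level and gene totals were not. The sources used here do not say if values were set to the spike-ins. The deviations used for spike-in scaling were only -0.08 to 0.07 log2, so that alternative moved values little. Since a 3′ library yields reads independently of transcript length, FPKM of different genes are not on a common scale. The tests compared each gene with itself. The marker sums and the levels of 1 and 10 FPKM do set different genes side by side, and so depend on transcript length. No value was 0, and the floor of a library was 0.0745 to 0.1333 FPKM. Depth is unknown and no count test was used. Log2 values correlated at 0.972 to 0.985 across genes within groups, and no libraries were identical.

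The 12204 genes that reached a group mean of 1 FPKM anywhere were tested with limma 3.58.1 (R 4.3.3, statmod 1.5.0; trend and robust) on log2(FPKM + 1), with 1 mean per group over all 18 libraries, two-sided, and Benjamini-Hochberg adjustment. The 9 comparisons were each dose against DMSO, the doses against each other, the response of XG1 minus that of AMO1 at each dose, and the lines in DMSO. All 10 members are given. From other lists at most 3 called genes per list, direction and comparison, those with the largest change, could be named. The members and lists were chosen with earlier results of these data known. Alternatives were pseudocounts of 0.1 and 5, no filter or a minimum mean of 5, centring, quantile and spike-in scaling (44 of 92 ERCC RNAs), no trend, a replicate block, smaller fits, and leaving out each library. The fit of the 9 libraries of a line was chosen after seeing the data. The script was tested on simulated data. Promoters are from RefSeq on GRCh38.p14.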

Additional observations from a re-analysis of the deposited data

Results flagged for a closer look

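The ATF3 responses of the 2 lines at 1000 nM YKL-5-124 differed by the test of the difference itself. The change in XG1 libraries minus that in AMO1 libraries was -1.73 ± 0.35 log2 (adjusted p = 0.0195, limma over 12204 genes). ATF3 was at 0.33, 0.69 and 1.75 FPKM in XG1 libraries at 1000 nM, against 1.70 to 3.42 FPKM in DMSO, and at 2.88, 4.14 and 4.37 FPKM in AMO1 libraries at 1000 nM, against 1.65 to 1.99 FPKM in DMSO. The call ended in 6 of 12 fits that left out 1 library (-1.68 to -1.5, adjusted p of 0.0573 to 0.0692), and with a pseudocount of 0.1 FPKM (adjusted p = 0.0637, limma), no filter (adjusted p = 0.0586) or the replicate block (adjusted p = 0.0653). A minimum mean of 5 FPKM leaves ATF3 untested. Of the marker sums in XG1 libraries, those of plasma cell genes (44.4 to 55.2 FPKM at 1000 nM against 72.1 to 75.9 FPKM in DMSO, most of it XBP1 and SDC1), of T cell and myeloid genes (20.6 to 27.1 against 31.8 to 37.9 FPKM) and of stromal and epithelial genes (79.2 to 92.2 against 95.7 to 104.1 FPKM) were lower at 1000 nM, while the low plasma cell marker IRF4 was higher (0.29 against 0.17 FPKM) and the erythroid sums overlapped. ITGAM and LYZ made up most of the T cell and myeloid sum, and EPCAM and KRT18 most of the stromal and epithelial sum. In AMO1 libraries the plasma cell sums overlapped, but IRF4 averaged 20.3 FPKM at 1000 nM against 32.8 FPKM in DMSO. PRDM1 and CD38 means were slightly higher there. The part of these markers in the result was not tested.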

How the results depend on the processing

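JUNB in XG1 libraries stayed called at both doses under every alternative run. No called change reversed under any. The number of members called in XG1 libraries at 1000 nM, 2, was 1 with a minimum mean of 5 FPKM (which drops ATF3) and in a fit of only the libraries compared, and 1 to 2 on leaving out a library. In XG1 libraries at 100 nM, 2 became 1 with a pseudocount of 5, no filter, only the libraries compared or only the line's 9 libraries, and was 1 to 2 on leaving out a library. In AMO1 libraries at 1000 nM, 4 became 1 with no filter, 2 with a minimum mean of 5 (which drops FOS and ATF3) and 0 to 4 on leaving out a library, with 0 without DMSO replicate 2. In AMO1 libraries at 100 nM, 1 became 0 with a pseudocount of 0.1, no filter, only the libraries compared or only the line's 9 libraries, and was 0 to 1 on leaving out a library. Between doses in XG1 libraries, 0 called was 0 to 1 on leaving out a library. The 1 difference of responses called at 1000 nM, ATF3, became 0 with a pseudocount of 0.1, no filter or a minimum mean of 5, and 0 to 1 on leaving out a library. Apart from the drops and smaller fits named, the cause was not tested.

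Replicate numbers did not pair the libraries: deviations of same-numbered libraries correlated at -0.12 to 0.09, 0 of 18 pairs were over 0.1, and 2 of 18 libraries lay closest to their own number. With the number as a replicate block, the members called in AMO1 libraries became 2 at 1000 nM and 0 at 100 nM, the called difference of responses at 1000 nM became 0, and the genes called of all tested fell to 486 of a main 807 in XG1 and 123 of a main 268 in AMO1 libraries at 100 nM.

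Changes that reversed were all uncalled. Centring gave FOSL1 0.17 in XG1 libraries at 1000 nM, JUND 0.086 in AMO1 libraries at 100 nM, JUN 0.18 between doses in XG1 and JUNB 0.087 between doses in AMO1 libraries, and differences of responses of -0.025 for BATF and -0.0092 for JUND at 1000 nM and -0.13 for FOSL1 at 100 nM. Quantile scaling gave FOSL1 0.10 in XG1 libraries at 1000 nM, JUND 0.015 at 100 nM, JUN 0.17 between doses in XG1 and JUNB 0.12 and MAFF 0.0086 between doses in AMO1 libraries, and differences of -0.071 for BATF at 1000 nM and of -0.088 for FOSL1 and 0.038 for JUND at 100 nM. A pseudocount of 0.1 gave a difference of -0.75 for BATF at 1000 nM, a pseudocount of 5 one of -0.0090 for FOSL1 at 100 nM, and spike-in scaling one of 0.0066 for JUND at 100 nM.

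On leaving out a library, changes against DMSO in XG1 libraries ran from -0.30 to 0.085 for FOSL1 at 1000 nM, and at 100 nM from -0.30 to 0.054 for ATF3 and -0.40 to 0.0039 for FOSL1. In AMO1 libraries JUND ran from -0.16 to 0.17 at 1000 nM and -0.29 to 0.034 at 100 nM. Between doses in XG1 libraries BATF ran from -0.15 to 0.34, FOS from -0.73 to 0.0079, FOSL1 from -0.14 to 0.31, JUN from -0.27 to 0.062 and JUNB from -0.032 to 0.17, and in AMO1 libraries JUNB ran from -0.23 to 0.085. Differences of responses at 1000 nM ran from -0.17 to 0.30 for BATF, -0.036 to 0.32 for JUN and -0.10 to 0.23 for JUND. At 100 nM they ran from -0.24 to 0.54 for FOS, -0.20 to 0.20 for FOSL1, -0.17 to 0.10 for JUN, -7.16e-04 to 0.32 for JUNB and -0.15 to 0.18 for JUND.

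Counts over all genes moved by over 1.5 times in 78 of 162 alternatives. Centring gave 1499 (611 higher) in XG1 and 477 (289 higher) in AMO1 libraries at 100 nM, and quantile scaling 1878 (892 higher) and 459 (205 higher). In AMO1 libraries at 100 nM the count was 137 with a pseudocount of 0.1, 453 with 5 and 63 with only the libraries compared. List counts moved in 93 of 476. Of the named list genes, the calls of ATF7 (quantile scaling), BTG2 (no filter or the replicate block), CCND1 (a pseudocount of 0.1), HMOX1 (a pseudocount of 0.1, no filter or quantile scaling) and ATF1 (no filter or quantile scaling) in AMO1 libraries at 1000 nM and of SPRY1 at 100 nM (only the libraries compared) also ended. The BATF3 call in AMO1 libraries at 1000 nM ended with a pseudocount of 0.1 (adjusted p = 0.0617, limma), and that of CXCL8 in XG1 libraries with only the libraries compared (adjusted p = 0.0566). The floor limits what low members can show.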
